A study of Homo sapiens with 8 samples.

Results

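The proteasome genes on these arrays were taken by symbol, as every gene whose name in the array's probe annotation begins with PSMA, PSMB, PSMC, PSMD, PSME, PSMF or PSMG followed by a digit. Of 18132 genes with a probe set assigned to that gene alone, 46 met this rule. The measured values used by the rule were levels: each gene's probe set was selected on the brightest mean of all 8 arrays, whatever their group. The difference between the groups is no part of the rule, but the members were chosen with earlier results of these data known. The counts below thus describe the list and do not test it. The 46 comprise 44 subunits, activators, inhibitors and assembly chaperones of the proteasome. The other 2 were taken in by symbol and have none of these roles. They are PSMC3IP, a cofactor of meiotic recombination, and PSME3IP1, which binds the activator PA28 gamma. PSMA6, PSMC5, PSMD7 and PSMD13 lacked a probe set of their own and are not analysed here.

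Affymetrix arrays were used to measure mRNA in AGS, an established line of human gastric adenocarcinoma cells. In the podofilox group (4 arrays) the cells had been exposed to 3.4 nM of the drug for 72 hours, and the control group (4 arrays) consisted of the same line without it. Podofilox, or podophyllotoxin, is a plant-derived tubulin ligand that keeps microtubules from forming. The labels give both groups the same serum-containing medium but leave unstated if controls were given solvent and if replicates came from separate cultures, so the p-values describe only array-to-array spread, possibly technical. The comparison asks which mRNAs differ after exposure, and here how the parts of the proteasome differ.

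The proteasome degrades proteins that carry ubiquitin chains. Its barrel, the 20S core, is built of outer alpha rings, which gate the channel, and inner beta rings, in which PSMB5, PSMB6 and PSMB7 hold the chymotrypsin-like, caspase-like and trypsin-like active sites. The 19S cap binds ubiquitin, removes it and feeds the unfolded substrate into the core through a ring of ATPases, while chaperones assemble core and cap from their subunits. Interferon induces PSMB8, PSMB9 and PSMB10, which replace PSMB5, PSMB6 and PSMB7 in the immunoproteasome and alter the peptides offered to major histocompatibility complex class I molecules. When proteasome activity falls, the transcription factor NFE2L1 is known to raise the transcription of many subunits through antioxidant response elements.

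Promoter sequences are shown for the 3 interferon-inducible catalytic subunits, which differed in direction, and for PSME3 and PSMG1, the member with the smallest p and the one with the lowest difference. They are the 250 bases before RefSeq gene starts of GRCh38.p14, 5′ to 3′ on the strand of the gene, for PSMB9 at chr6:32853942-32854191 (plus strand), for the PSMB8 starts at chr6:32844680-32844929 and chr6:32844048-32844297 (minus), for PSMB10 at chr16:67936851-67937100 (minus), for PSMG1 at chr21:39183452-39183701 (minus) and for PSME3 at chr17:42833147-42833396 (plus). Capitals mark matches, on either strand, to 1 of 3 patterns: GAAANNGAA, the core of the interferon-stimulated response element, TGACNNNGC, an antioxidant response element core, and CACGTG, an E-box.
PSMB9: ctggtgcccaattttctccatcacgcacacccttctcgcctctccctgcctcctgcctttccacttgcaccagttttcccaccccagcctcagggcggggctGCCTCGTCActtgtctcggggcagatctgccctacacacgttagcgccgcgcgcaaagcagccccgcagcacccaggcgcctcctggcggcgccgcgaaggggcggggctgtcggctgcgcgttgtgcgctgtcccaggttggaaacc
PSMB8, outer start: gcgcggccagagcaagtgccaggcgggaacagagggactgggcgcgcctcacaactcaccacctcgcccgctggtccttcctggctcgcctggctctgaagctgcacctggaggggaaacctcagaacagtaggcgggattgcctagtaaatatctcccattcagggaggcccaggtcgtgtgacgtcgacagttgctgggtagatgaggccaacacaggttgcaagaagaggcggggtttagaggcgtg
PSMB8, inner start: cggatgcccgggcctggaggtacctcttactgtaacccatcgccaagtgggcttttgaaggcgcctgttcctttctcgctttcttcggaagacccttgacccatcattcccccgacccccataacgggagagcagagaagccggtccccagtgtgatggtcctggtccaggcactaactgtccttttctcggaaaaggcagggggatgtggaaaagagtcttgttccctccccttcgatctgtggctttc
PSMB10: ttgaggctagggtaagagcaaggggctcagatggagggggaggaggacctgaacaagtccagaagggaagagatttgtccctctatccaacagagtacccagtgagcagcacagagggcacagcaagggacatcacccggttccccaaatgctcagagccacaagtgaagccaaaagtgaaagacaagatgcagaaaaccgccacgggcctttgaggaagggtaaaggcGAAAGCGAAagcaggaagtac
PSMG1: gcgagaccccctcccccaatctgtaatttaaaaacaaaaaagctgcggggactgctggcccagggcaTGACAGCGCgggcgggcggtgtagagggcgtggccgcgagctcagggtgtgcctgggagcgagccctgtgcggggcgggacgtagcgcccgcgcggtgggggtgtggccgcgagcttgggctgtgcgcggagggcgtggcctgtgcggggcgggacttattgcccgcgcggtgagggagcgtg
PSME3: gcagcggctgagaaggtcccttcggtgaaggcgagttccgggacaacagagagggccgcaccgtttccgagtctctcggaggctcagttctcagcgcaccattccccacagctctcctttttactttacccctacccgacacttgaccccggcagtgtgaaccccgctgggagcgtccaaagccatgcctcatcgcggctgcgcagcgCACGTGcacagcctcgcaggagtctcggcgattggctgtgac

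In these windows PSMB10 held GAAANNGAA, PSMB9 and PSMG1 held TGACNNNGC, PSME3 held CACGTG, and neither window of PSMB8 held any of the 3. RefSeq windows were found for 40 of the 46 genes (49 windows, since some genes have several starts), and none was found for PSMA7, PSMB1, PSMB6, PSMB7, PSMD4 and PSMG3. GAAANNGAA lay in 5 of the 49 windows (PSMA4, PSMB4, PSMB10, PSME2 and PSMG4), against 6.88% of 35116 windows of all genes. TGACNNNGC lay in 12 of the 49, against 10.9% of all windows, and CACGTG in 5 (of PSMB3, PSMD9, PSME3 and PSME3IP1), against 6.34%. No pattern overlaps another in its letters. The patterns were chosen with the values of the genes known, and a match is a description of the letters. The PSMB9 start lay 488 bases from a start of TAP1 on the opposite strand.

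All values below are log2 expression as deposited, and a difference is podofilox minus control. The words rose and fell are kept for genes whose two-sided limma p, Benjamini-Hochberg adjusted over all 18132 genes, was under 0.05. Across genes, which are not independent replicates, correlations were 0.997 to 0.999 within a group and 0.995 to 0.997 between groups. The averaged level of the poly-A spike-in controls was 7.54 ± 0.10 on podofilox arrays and 7.34 ± 0.05 on control arrays (SD, n = 4 each), and the groups did not overlap. Podofilox arrays 1 and 2 had 7.62 and 7.64, podofilox arrays 3 and 4 both 7.45, and control arrays 7.31 to 7.41. On a scale set by these spike-ins the median difference of all genes was -0.20, against 0.0069 as deposited, so directions below are relative to the other genes on the array. The labels do not say how the spike-ins were added. The 5 epithelial markers averaged 13.07 to 13.14 on podofilox arrays and 12.93 to 12.99 on control arrays, and 1 of them, CLDN4, a tight junction protein, rose by 0.50. The 6 fibroblast markers averaged 4.61 to 4.74 on podofilox arrays and 4.53 to 4.71 on control arrays, and the 4 endothelial markers 5.95 to 6.13 on podofilox arrays and 5.90 to 6.32 on control arrays. The 5 immune markers averaged 6.59 to 6.68 on podofilox arrays and 6.58 to 6.62 on control arrays. LYZ, at 13.62 on podofilox and 13.60 on control arrays, lifted these averages. The other immune markers had group means from 3.49 to 6.06. Differences of the 5 ran from -0.14 in the leukocyte marker PTPRC (3.49 on podofilox arrays, 3.62 on control arrays) to 0.23 in CD3E. Of the 5, 0 passed limma's adjusted test, with CD3E and CD74 (0.14) at an unadjusted p under 0.05. Of the 15 measured fibroblast, immune and endothelial markers, 1, the dim endothelial gene CDH5, fell, by 0.44.

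Proteasome mRNA was mostly lower in podofilox cells, by small amounts. Of the 46 genes, 17 fell and 2 rose, against 12.5% and 8.55% of all genes. Genes of the core, the cap, the activators and the chaperones were among those that fell. They decreased by 0.13 to 0.44, with a median of -0.20, where all 2260 genes that fell had a median of -0.26. The 2 that rose were PSMB9, the interferon-inducible subunit that replaces PSMB6, and PSMD10, or gankyrin, a chaperone of the cap, whose direction turned on the spike-in scale. In bulk RNA, a change in the make-up of the cells and a change in the RNA per cell cannot be told apart.

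Counted without the test, 38 of the 46 differences lay below 0, against 47.8% of all genes, and the median difference was -0.10. The podofilox values were entirely below the control values in 24 genes, against 15.6% of all genes, and entirely above them in 2, against 10.6%. Since 43 of the 46 lay at or above the median level of all genes, the 9066 genes at or above that level are the nearer background: 21.5% of them fell, 12.4% rose, 57.8% lay below 0, 27.4% had podofilox values entirely below and 15.1% entirely above, and their median was -0.03. The 27 genes that did not pass the test had adjusted p between 0.0750 and 0.972, and 21 of them lay below 0. The count of 17 falls was 9 without control array 4, where 9.08% of all genes fell, and 11 without podofilox array 4 or control array 1, where 9.86% and 10.3% fell. The count of 2 rises was 1 without any single array other than podofilox array 3. Scaled on the spike-ins, 38 of the 46 fell, both rises were no longer called, the median was -0.31, and 44.9% of all genes fell.

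**Figure D1:**
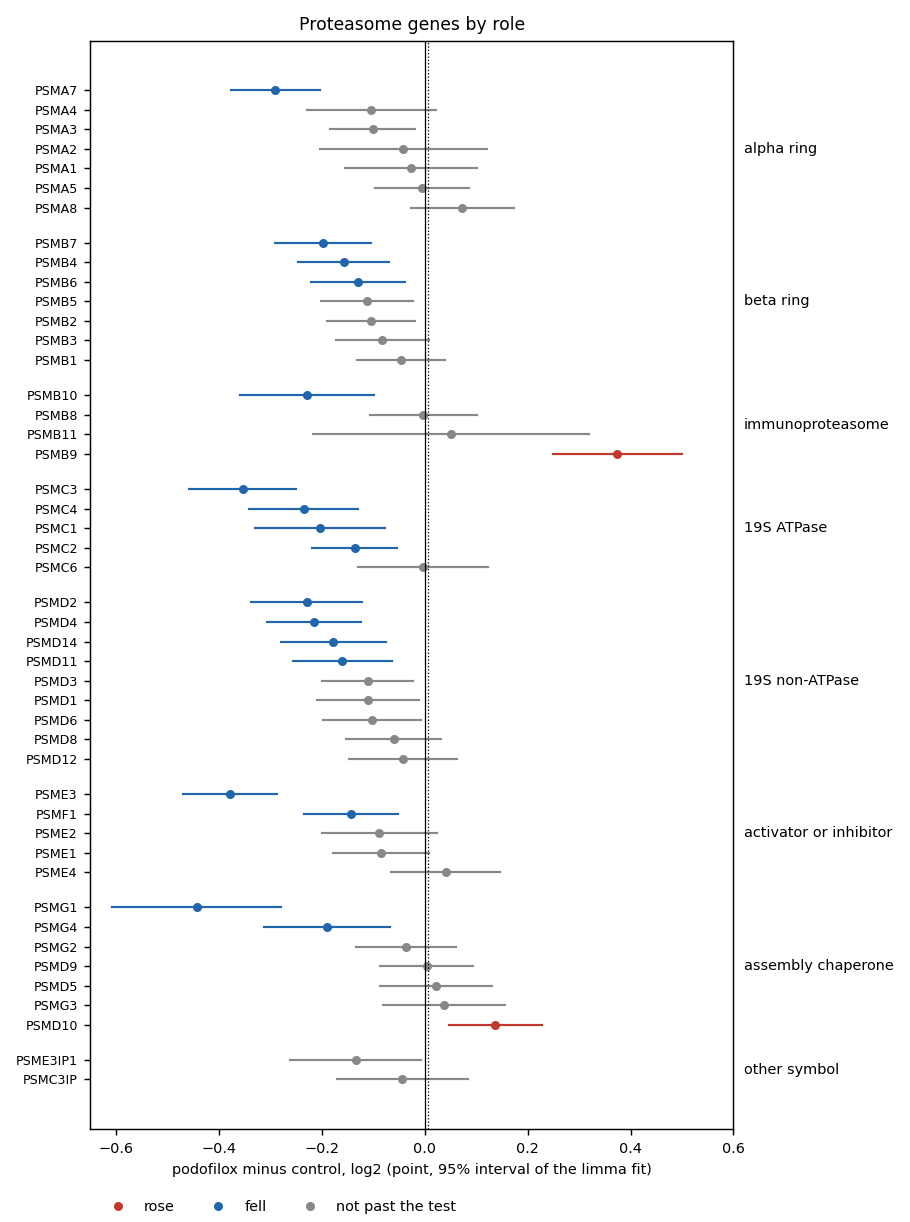
Difference of each of the 46 proteasome genes, podofilox minus control in log2, by role, with its 95% interval from the limma fit; red points rose, blue points fell and grey points did not pass the test. The dotted line is the median of all genes (0.0069), and most points of the rings and the cap lie left of it, with PSMB9 at 0.37 and PSMG1 at -0.44 as the outermost.

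In the alpha ring, 1 of 7 genes fell and 6 lay below 0 (PSMA5 turned to 0.0021 with centred arrays), with a median difference of -0.04. Of genes at or above the median level, 21.5% fell and 57.8% lay below 0. PSMA7, a subunit of that ring, was measured at 11.92, 11.93, 11.92 and 11.91 on podofilox arrays, against 12.17, 12.26, 12.19 and 12.22 on control arrays. The groups lay apart, and PSMA7 fell by 0.29 (SE 0.04, adjusted p = 0.000697). PSMA8, the testis form of PSMA7, had the lowest level of all 46 genes, at 3.82, 3.83, 3.78 and 3.74 on podofilox arrays and 3.65, 3.76, 3.70 and 3.77 on control arrays. Its groups overlapped, at a level near the lower end of the array's scale, and its difference was 0.07 (adjusted p = 0.290).

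The remaining alpha subunits ranged from -0.10 in PSMA4 and PSMA3 to -0.0058 in PSMA5, with -0.04 in PSMA2 and -0.03 in PSMA1, and none passed the test. PSMA3 had groups that did not overlap (adjusted p = 0.0815). PSMA4 passed the test when podofilox array 3 was left out (-0.15, adjusted p = 0.0469). PSMA1, PSMA2, PSMA4 and PSMA5 all had overlapping groups. A further, dim probe set of PSMA1 at a mean level of 5.40 fell by 0.45.

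In the beta ring the SD of the differences over genes was 0.05, against 0.11 in the alpha ring. The latter includes PSMA7 (-0.29) and the dim testis form PSMA8 (0.07). The other alpha ring genes ranged from -0.10 to -0.0058, and the beta ring genes from -0.20 to -0.05. All 7 beta ring genes lay below 0 and had podofilox arrays entirely below the control arrays, 3 fell, and the median difference was -0.11. Of genes at or above the median level, 57.8% lay below 0, 27.4% had podofilox values entirely below and 21.5% fell. PSMB7, the trypsin-like subunit, was measured at 11.13, 11.11, 11.01 and 11.08 on podofilox arrays, against 11.26, 11.28, 11.27 and 11.30 on control arrays. Podofilox array 3 was the lowest of its group, and PSMB7 fell by 0.20 (SE 0.04, adjusted p = 0.00812). Its next 2 probe sets by level also fell, by 0.21 and 0.16, whereas a pair of dim ones differed by 0.02 and 0.22 without passing the test, and the mean over its probe sets was no longer called (-0.07, adjusted p = 0.323).

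PSMB4, a structural beta subunit, had 11.54, 11.57, 11.49 and 11.53 on podofilox arrays and 11.67, 11.73, 11.68 and 11.67 on control arrays. The control values lay close together except for array 2, and PSMB4 fell by 0.16 (SE 0.04, adjusted p = 0.0181). PSMB6, the caspase-like subunit, fell by 0.13 (SE 0.04, adjusted p = 0.0473), a call that ended whichever array was left out, with adjusted p from 0.0514 to 0.122. PSMB5, the chymotrypsin-like subunit and the target of clinical proteasome inhibitors, differed by -0.11 and did not pass (adjusted p = 0.0777), though 1 of its 4 further probe sets fell, by 0.14.

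The structural subunits PSMB2 and PSMB3 differed by -0.11 and -0.08 without passing the test. PSMB1, also structural, had the highest level of the 46 genes, at 12.71, 12.76, 12.76 and 12.75 on podofilox arrays and 12.78, 12.83, 12.77 and 12.79 on control arrays. These groups lay apart by a narrow margin, and the difference of -0.05 did not pass the test (adjusted p = 0.444).

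The immunoproteasome subunits differed in direction. PSMB9 rose, with 9.05, 8.90, 8.81 and 8.88 on podofilox arrays and 8.55, 8.48, 8.59 and 8.51 on control arrays. Every podofilox value exceeded every control value, and the difference was 0.37 (SE 0.06, 95% interval 0.25 to 0.50, adjusted p = 0.00128), or 1.30-fold. PSMB10, which replaces PSMB7, had 9.05, 9.09, 8.84 and 9.01 on podofilox arrays and 9.17, 9.22, 9.25 and 9.27 on control arrays. Its groups lay apart the other way, and PSMB10 fell by 0.23 (95% interval -0.36 to -0.10, adjusted p = 0.0193), a call that ended without control array 4 (adjusted p = 0.0617).

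PSMB8, which replaces PSMB5, was measured at 10.01, 10.12, 10.07 and 10.10 on podofilox arrays and 10.02, 10.15, 10.04 and 10.11 on control arrays. The groups overlapped throughout, with a difference of -0.0029 and a 95% interval from -0.11 to 0.10. Its further probe sets differed by 0.099 and 0.095 without passing the test, and the mean over its probe sets differed by 0.064. PSMB8 and PSMB9 were not tested against each other. PSMB11, the thymus form of PSMB5, lay at 4.34, 4.14, 4.54 and 4.19 on podofilox arrays and 4.06, 4.11, 4.58 and 4.26 on control arrays. These dim values spread more widely within each group than any other member's, and the difference of 0.05 did not pass the test.

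The direction of PSMB9 depended on its brighter probe sets. The second, at a mean level of 7.27, also rose, by 0.23, while the dimmest, at 4.86, differed by -0.20 without passing the test. Averaged over all 3, PSMB9 differed by 0.14 and was not called (adjusted p = 0.0757), and on the spike-in scale its representative differed by 0.17 (adjusted p = 0.0645). Within arrays numbered 1 and 2 the difference of PSMB9 was 0.46, and within arrays 3 and 4 it was 0.29. PSMB10 had -0.12 and -0.34 in these pairs, and its 2 further probe sets differed by -0.17, which passed the test, and -0.15.

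**Figure D2:**
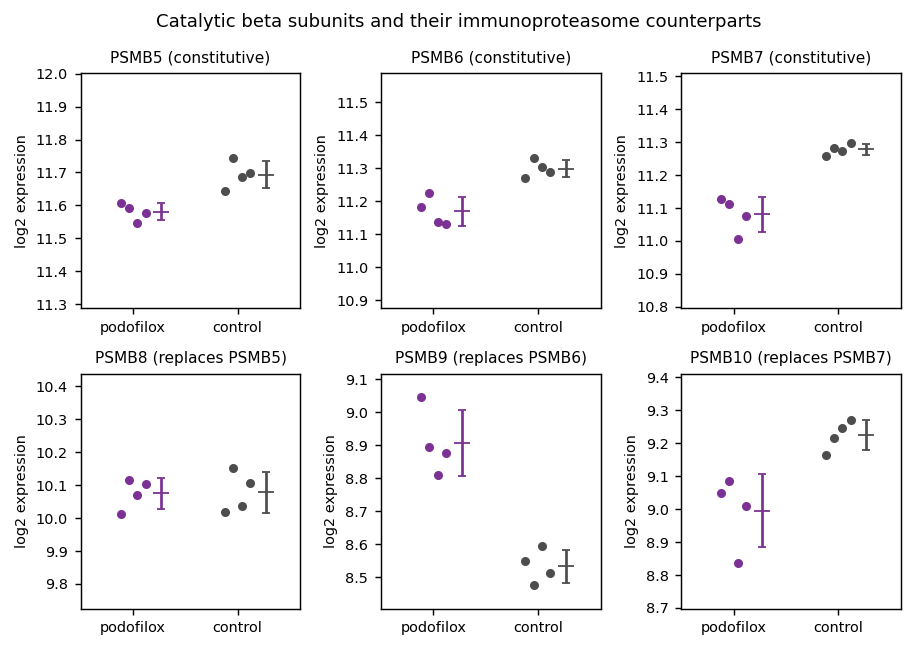
Log2 expression of the 3 constitutive catalytic subunits (upper row) and of the subunits that replace them in the immunoproteasome (lower row) on each array, podofilox left and control right, with the mean and SD of 4 arrays; all panels span the same number of log2 units. PSMB9 lies at 8.81 to 9.05 on podofilox arrays, above 8.48 to 8.59 on control arrays, whereas PSMB8 overlaps and the other 4 lie below their controls.

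The 19S ATPases unfold the substrate and open the alpha ring. Of the 5 measured, 4 fell (2 with the probe sets of each gene averaged) and all lay below 0 (PSMC6 turned to 0.0043 with arrays centred on their median), with a median difference of -0.20. The shares of genes at or above the median level were 21.5% fallen and 57.8% below 0. PSMC3, or RPT5, had 9.88, 9.89, 9.80 and 9.77 on podofilox arrays and 10.16, 10.26, 10.17 and 10.17 on control arrays. Control array 2 was the highest, no values overlapped, and PSMC3 fell by 0.35 (SE 0.05, adjusted p = 0.000633), or 1.28-fold, on its single probe set. PSMC4, or RPT3, had 9.45, 9.46, 9.36 and 9.41 on podofilox arrays and 9.60, 9.70, 9.59 and 9.73 on control arrays. Its groups also lay apart, with a fall of 0.24 (SE 0.05, adjusted p = 0.00648), and its other probe set fell by 0.29.

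PSMC1 (RPT2) and PSMC2 (RPT1) fell by 0.20 and 0.14 (adjusted p = 0.0297 and 0.0258). PSMC1 has only probe sets of a kind marked as able to bind other transcripts. The call of PSMC1 held without podofilox array 4 or control array 3 and ended without any 1 of the other 6, with adjusted p up to 0.0700. That of PSMC2 held without podofilox array 3 or control array 2 and likewise ended otherwise, up to 0.0817. Averaged probe sets ended both calls (-0.17 and -0.13, adjusted p = 0.0774 and 0.136). PSMC6 (RPT4) differed by -0.0036, with overlapping groups and a 95% interval from -0.13 to 0.12.

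Among the non-ATPase subunits of the cap, 4 of 9 fell and all lay below 0. The shares were 21.5% and 57.8% among genes at or above the median level. The median difference of the 9 was -0.11. PSMD4, or RPN10, a ubiquitin receptor, had 10.72, 10.71, 10.63 and 10.65 on podofilox arrays, against 10.88, 10.89, 10.87 and 10.93 on control arrays. The groups were apart, and PSMD4 fell by 0.22 (SE 0.04, adjusted p = 0.00471) on its only single-gene probe set, which is of the kind marked as able to bind other transcripts. PSMD2, or RPN1, which docks ubiquitin-like domains, had 10.72, 10.71, 10.58 and 10.61 on podofilox arrays and 10.88, 10.95, 10.85 and 10.86 on control arrays. It too was lower on every podofilox array and fell by 0.23 (SE 0.05, adjusted p = 0.00761). Its next probe set fell by 0.27, while without probe sets of the cross-binding kinds its call ended.

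PSMD14, or RPN11, the deubiquitinase of the cap, had 10.77, 10.78, 10.70 and 10.74 on podofilox arrays and 10.90, 11.01, 10.87 and 10.92 on control arrays. Its control values spread more than its podofilox values without meeting them, and it fell by 0.18 (SE 0.05, adjusted p = 0.0200), a call that ended without podofilox array 4 or control array 4 (adjusted p up to 0.0543). PSMD11 (RPN6), which clamps the cap to the core, fell by 0.16 (adjusted p = 0.0260), a call that ended without podofilox array 1 or 4 or control array 1, 2 or 4 (up to 0.0759).

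The scaffold subunits that did not pass the test ranged from -0.11 in PSMD3 (RPN3) and -0.11 in PSMD1 (RPN2) through -0.10 in PSMD6 (RPN7) and -0.06 in PSMD8 (RPN12) to -0.04 in PSMD12 (RPN5). PSMD3 and PSMD1 had groups that did not overlap, and the second probe set of PSMD1 fell by 0.18. In the core without PSMA8, 4 of 13 genes fell and the median was -0.10, and in the cap 8 of 14 fell and the median was -0.15. Of genes at or above the median level 21.5% fell. Core and cap were not tested against each other.

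Of the 5 activators and inhibitors, 2 fell, against 21.5% of genes at or above the median level. PSME3 encodes PA28 gamma, a nuclear ring that opens the core without ubiquitin, and had the smallest p of the 46 genes. It was measured at 8.69, 8.77, 8.68 and 8.70 on podofilox arrays, against 9.07, 9.13, 9.07 and 9.08 on control arrays. The gap between the groups was wider than the spread within either, with a fall of 0.38 (SE 0.04, adjusted p = 0.000226), or 1.30-fold. Its 2 further probe sets fell by 0.24 and 0.21, and its call was kept under every alternative tried.

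PSMF1, or PI31, which inhibits the core in vitro, fell by 0.14 (adjusted p = 0.0330). The call held without podofilox array 1 or 2 and ended without any other single array (up to 0.102). It also ended with averaged probe sets (adjusted p = 0.0541). The next probe set of PSMF1 fell by 0.16, and its dimmer ones did not pass the test. The probe sets that fell are of a cross-binding kind, and without such kinds PSMF1 differed by -0.06 and was not called. PSME1 and PSME2, the interferon-inducible PA28 alpha and beta, differed by -0.09 and -0.09, with overlapping groups. PSME4, or PA200, differed by 0.04 on its brightest probe set. Of its 5 further probe sets 2 dimmer ones rose, by 0.37 and 0.19, adjusted over all probe sets.

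**Figure D3:**
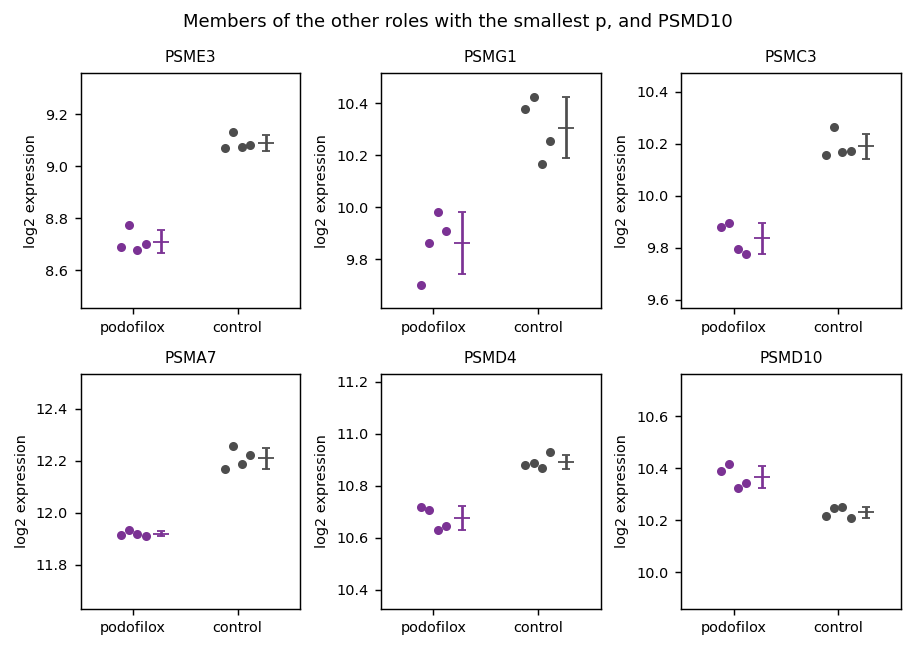
Log2 expression on each array of PSME3, PSMG1, PSMC3, PSMA7 and PSMD4, each the gene with the smallest p of its role among the roles not drawn with the catalytic subunits, and of PSMD10, podofilox left and control right, with the mean and SD of 4 arrays; all panels span the same number of log2 units. PSMD10 alone lies higher with podofilox (10.32 to 10.42) than in control (10.21 to 10.25), a direction that turned on the spike-in scale, and PSMG1 spreads the most within its groups.

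The assembly chaperones were split. Of 7, 2 fell, 1 rose and 3 lay below 0, against 12.5%, 8.55% and 47.8% of all genes. Among genes at or above the median level the shares were 21.5%, 12.4% and 57.8%. The median difference of the 7 was 0.0039. PSMG1, or PAC1, which with PSMG2 forms the dimer that builds the alpha ring, had 9.70, 9.86, 9.98 and 9.91 on podofilox arrays, against 10.38, 10.42, 10.17 and 10.26 on control arrays. No values overlapped, although the spread within each group was wide, and PSMG1 fell by 0.44 (SE 0.07, adjusted p = 0.00234), or 1.36-fold. The difference was -0.62 within arrays numbered 1 and 2 and -0.27 within arrays 3 and 4, where the adjusted p lay just above the threshold.

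PSMG2, or PAC2, the partner of PSMG1, was at 11.08, 11.15, 11.15 and 11.14 on podofilox arrays and 11.15, 11.24, 11.14 and 11.14 on control arrays. Control array 2 stood above the rest, and the difference of -0.04 did not pass the test. PSMG3, or PAC3, was at 8.75, 8.62, 8.58 and 8.57 on podofilox arrays and 8.54, 8.55, 8.67 and 8.60 on control arrays. Its groups overlapped, with a difference of 0.04. PSMG4, or PAC4, the partner of PSMG3, was at 9.50, 9.43, 9.25 and 9.41 on podofilox arrays and 9.55, 9.60, 9.59 and 9.62 on control arrays. These groups lay apart, and PSMG4 fell by 0.19 (SE 0.05, adjusted p = 0.0336), a call that held without podofilox array 1 or 3 and ended without any other single array (up to 0.0920) and with averaged probe sets (adjusted p = 0.0667). Of its 5 further probe sets 1 fell, by 0.18, and the dimmest differed by 0.06.

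PSMD5, PSMD9 and PSMD10 are chaperones of the ATPase base of the cap. PSMD10 was at 10.39, 10.42, 10.32 and 10.34 on podofilox arrays and 10.22, 10.25, 10.25 and 10.21 on control arrays. All podofilox values were the higher ones, and PSMD10 rose by 0.14 (SE 0.04, adjusted p = 0.0367), but its direction turned on the spike-in scale (-0.07, adjusted p = 0.364), and its call ended without any single array other than podofilox array 3 (up to 0.109). PSMD9 was at 9.75, 9.77, 9.68 and 9.75 on podofilox arrays and 9.76, 9.73, 9.69 and 9.75 on control arrays. It overlapped throughout, with a difference of 0.0039, though a dim second probe set at 5.29 rose by 0.42. PSMD5 was dim, at 4.38, 4.37, 4.43 and 4.55 on podofilox arrays and 4.40, 4.41, 4.45 and 4.39 on control arrays. Only podofilox array 4 stood above the control range, and the difference of 0.02 did not pass the test.

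Of the 2 genes taken in by symbol alone, PSME3IP1 was at 9.26, 9.15, 9.07 and 9.07 on podofilox arrays and 9.20, 9.34, 9.33 and 9.22 on control arrays. Podofilox array 1 lay within the control range, and the difference of -0.13 passed the test without that array (-0.18, adjusted p = 0.0482) and on the spike-in scale (-0.34, adjusted p = 0.00127), where PSMC3IP passed as well (-0.25). PSMC3IP differed by -0.04, with overlapping groups.

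The 46 genes have 112 single-gene probe sets, and 33 genes have more than 1. Adjusted over all 49395 probe sets, 29 of the 112 fell and 5 rose, against 10.1% and 7.67% of all probe sets. Of the 66 further probe sets, 56 had the sign of their gene's brightest one. In each of the 12 fallen genes with a further probe set, the brightest further one also lay below 0. PSMB9, PSMB7 and PSMG4 had a further probe set of the opposite sign to a called representative, each of them dim.

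**Figure D4:**
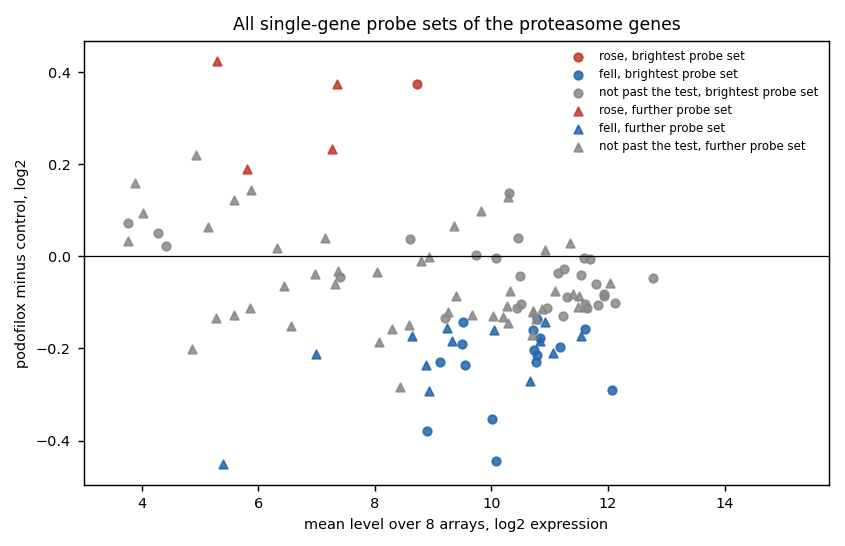
Difference against mean level, both in log2, for the 112 single-gene probe sets of the proteasome genes; circles are the brightest probe set of a gene, triangles the further ones, and colours give the call adjusted over all probe sets, under which PSMD10 and PSMB6 are grey. Above a level of 8 most points lie below 0, and 4 of the 5 risen probe sets lie between 5 and 8.

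The genes around the proteasome were taken from lists of its partners. Of 14 measured partners and substrate receptors, 5 fell and 1 rose, against 12.5% and 8.55% of all genes, with a median difference of -0.12. Among genes at or above the median level these shares were 21.5% and 12.4%. UBE3C, a ubiquitin ligase bound to the cap that extends chains on stalled substrates, fell by 0.51 (SE 0.04, adjusted p = 8.20e-05), but the mean over its 4 probe sets did not pass (-0.09, adjusted p = 0.188). ECPAS, which tethers core and cap, fell by 0.28, and UCHL5, a deubiquitinase of the cap, fell by 0.26, a call that its averaged probe sets did not keep (-0.11, adjusted p = 0.0859). ZFAND5, which stimulates the proteasome, rose by 0.18 as deposited but differed by -0.02 on the spike-in scale.

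Of the 4 p97 complex genes, which extract ubiquitinated proteins for the proteasome, 2 fell, against 21.5% of genes at or above the median level. UFD1 fell by 0.26, a call that its averaged probe sets did not keep (-0.05, adjusted p = 0.488), VCP, p97 itself, fell by 0.18, and NPLOC4 differed by -0.07. Of 5 biogenesis and transcription genes, 0 passed limma's adjusted test, with 1 of them, NFE2L2, at an unadjusted p under 0.05. Of all genes 12.5% fell and 8.55% rose. NFE2L2, the oxidative stress factor, differed by -0.11, the core maturation factor POMP by -0.08 and the protease DDI2, which activates NFE2L1, by 0.13. By limma without the probe sets of cross-binding kinds, and also with the mean of probe sets, 1 of these 5 fell, namely NFE2L2 (-0.17 and -0.14). Under these settings 11.4% and 12.4% of all genes fell. Of 3 measured ubiquitin and E1 genes, UBA6 rose by 0.25 (0.05 and not called on the spike-in scale), while UBA1 differed by -0.11 and the ubiquitin gene UBB by -0.03.

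Class I peptide loading uses the products of the immunoproteasome. Of 10 measured genes of peptide loading and its interferon regulators 7 rose, against 8.55% of all genes, with a median difference of 0.21. The share risen was 12.4% among genes at or above the median level. None of the 7 was called on the spike-in scale, where 3 others fell. On that scale 1.26% of all genes rose and 44.9% fell. HLA-B rose by 0.32 and HLA-C by 0.39, both on probe sets of the cross-binding kind and both with close relatives among class I genes, so their shares are uncertain. Without such probe sets HLA-B was not called (0.19, adjusted p = 0.174), and 3 of 9 genes rose, against 7.96% of all genes. TAP1, the peptide transporter whose start neighbours that of PSMB9, had 9.16, 9.23, 9.17 and 9.27 on podofilox arrays and 8.89, 8.98, 8.96 and 8.94 on control arrays. All podofilox values were higher, with a difference of 0.27 (SE 0.04, adjusted p = 0.0021), or 0.06 and not called on the spike-in scale.

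Of 7 heat shock genes, which are known to respond to proteasome inhibition, 4 rose, against 8.55% of all genes. The share risen was 12.4% among genes at or above the median level. The median difference of the 7 was 0.16. But on the spike-in scale the median was -0.04 and 4 of the 7 lay below 0. There 1 rose (HSPA1B, 0.28) and 1 fell (HSPA8, -0.19), against 1.26% and 44.9% of all genes. HSPA1B, whose transcript is nearly identical to that of HSPA1A, rose by 0.49 (SE 0.04, adjusted p = 7.75e-05), HSPB1 by 0.24 and BAG3 by 0.26, all on probe sets of the cross-binding kinds. Without such probe sets 4 genes of the list were left, all above 0 and none called, where 7.96% of all genes rose. DNAJB1, HSP90AA1 and HSPA8 differed by 0.06, 0.03 and 0.02 and did not pass.

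**Figure D5:**
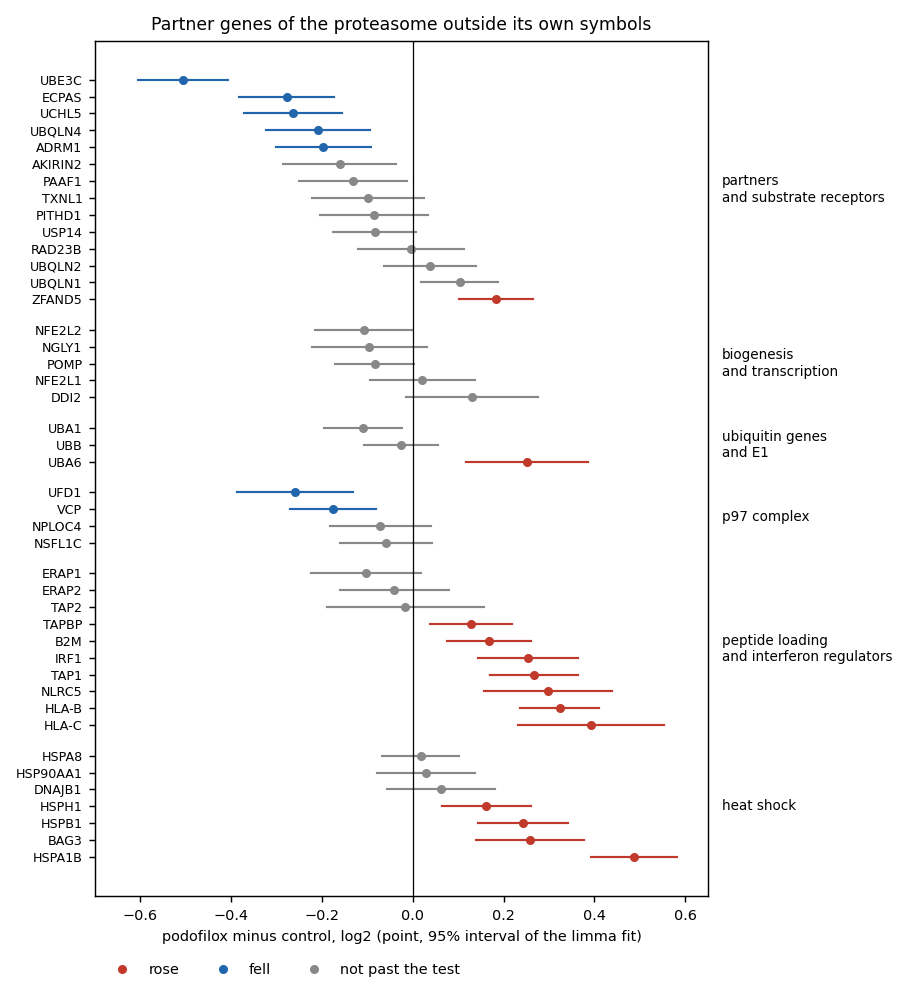
Difference of each measured partner gene, podofilox minus control in log2, by list, with its 95% interval from the limma fit; red points rose, blue points fell and grey points did not pass the test. UBE3C at -0.51 is the lowest and HSPA1B at 0.49 the highest. Of 10 genes of peptide loading 7 rose as deposited (8.55% of all genes, 12.4% of those at or above the median level). None of them rose on the spike-in scale (1.26% of all genes).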

How the data were processed

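Messenger RNA of AGS cells was hybridised to 8 Affymetrix arrays, 4 for podofilox and 4 for control. The authors deposited 1 log2 value per probe set and array, made with RMA (background correction, quantile normalization and a summary of the probes of each set), per the submitters' processing notes. Its version and options are not stated in any label. Values ran between 2.64 and 15.0, as log2 of a scanner signal does, and array medians between 6.39 and 6.45. No detection calls were used. Precision is limited by the number of arrays.

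Of 49395 probe sets, 44988 carry 1 gene symbol, 1832 several, 2473 none, and 102 are manufacturer controls. Each of 18132 genes was represented by its brightest single-gene probe set, with no intensity filter, so all 46 proteasome genes were tested. Podofilox was compared with control by limma 3.58.1 in R 4.3.3 (lmFit, eBayes, group as the only term), with Benjamini-Hochberg adjustment over all genes, a threshold of 0.05 and 95% intervals. The script was tested on simulated data. SE is limma's moderated standard error. No 2 arrays held equal values for more than 0.188% of probe sets. Deviations from the group means of same-numbered arrays correlated at -0.13, 0.09, -0.24 and 0.06. Those of differently numbered arrays correlated at -0.15 to 0.24. Correlations this weak, from 4 arrays a group, cannot show whether replicate numbers paired the arrays, and no pairing was used.

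Values on every array are given for the 12 genes with the smallest p, the smallest p of each role, all immunoproteasome subunits and assembly chaperones, and the brightest and dimmest gene. Each partner list is named by its 3 smallest p, and the other partner genes named were picked with their values known. The members, roles, lists and motifs were chosen with earlier results of these data known, and no list was tested as a set. The alternatives were a filter on dim genes, repeated quantile normalization, centring, a robust intensity trend, array weights, a replicate block, pairs of numbers as a factor or on their own, the mean of a gene's probe sets, no probe sets of the _x_at or _s_at kinds (which can bind other transcripts), and each array left out. Scaling on the poly-A spike-in probe sets was added after seeing that these differed between the groups. Promoter windows came from RefSeq of GRCh38.p14.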

Additional observations from a re-analysis of the deposited data

Results flagged for a closer look

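In 6 of the 92 groups of 4 arrays of proteasome genes, 1 array stood far from the others by Dixon's criterion, where chance alone marks about 1 group in 20. The array was control 2 in 3 of them. PSMC3 was 10.26 on control array 2 and 10.16 to 10.17 on the other control arrays. PSMB4 was 11.73 there, with the others at 11.67 to 11.68, and PSMG2 was 11.24, with the others at 11.14 to 11.15. PSMD1 was 10.8 on podofilox array 3 and 10.91 to 10.94 on the other podofilox arrays. PSMC3IP was 7.31 on control array 3, with the others at 7.46 to 7.48, and PSMA5 was 11.64 on control array 1, with the others at 11.70 to 11.71. The falls of PSMC3 and PSMB4 kept their calls whichever array was left out.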

How the results depend on the processing

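Precision is limited by the number of arrays. Of the 17 falls, 9 kept their call whichever array was left out, and 1 (PSME3) kept it under all 20 alternatives; of the 2 rises, 1 (PSMB9) and 0 did so. Leaving out 1 array at a time gave 9 to 15 falls and 1 to 2 rises, where 9.08% to 11.8% of all genes fell and 5.84% to 8.68% rose, and the cause was not tested beyond the smaller number of arrays. With the replicate number as a block, 9 genes fell and 1 rose (8.96% and 6.15% of all genes). Whether same-numbered arrays share more than a number is not known. Arrays numbered 1 and 2 alone gave 2 falls and 1 rise (2.99% and 2.58% of all genes) and an alpha ring median of -0.12, and arrays 3 and 4 alone gave 6 falls and 1 rise (7.69% and 4.99% of all genes), with 2 arrays a group. In a fit of the 9066 genes at or above the median signal alone, 23 of 43 members fell and 2 rose. Of these 9066 genes, with p adjusted over them only, 28.6% fell and 16.3% rose. With array weights 22 of 46 fell and 2 rose (15.82% and 13.3% of all genes). With the robust intensity trend 25 fell and 2 rose (14.98% and 9.56% of all genes). With the mean of a gene's probe sets 15 fell and 3 rose (12.4% and 9.68% of all genes), and the beta ring median was -0.082. Without _x_at and _s_at probe sets 11 of 42 genes fell and 2 rose (11.4% and 7.96% of all genes). The median of the 3 ATPases left was -0.29, and PSMB4, PSMB6, PSMD2 and PSMF1 lost their calls. The fallen genes PSMC1 and PSMD4 have no probe set of another kind and dropped out. On the spike-in scale 38 genes fell and 0 rose by limma, as did 44.9% and 1.26% of all genes, with medians of -0.31 for all 46, -0.25 for the alpha ring, -0.32 for the beta ring, -0.18 for the immunoproteasome, -0.41 for the ATPases, -0.32 for the non-ATPases, -0.29 for the activators, -0.20 for the chaperones and -0.29 for the other symbols; the construction of that scale lowers every difference by the same amount. Medians near 0 also crossed it: that of the chaperones was -0.012 with quantile normalization once more and -0.030 on arrays 1 and 2, and that of the immunoproteasome was -0.017 with array weights. Of the single genes that reversed, only PSMD10 had been called. On the spike-in scale PSMD10 was at -0.068, PSMA8 at -0.13, PSME4 at -0.16, PSMG3 at -0.17, PSMD5 at -0.18, PSMB11 at -0.15 and PSMD9 at -0.20. With quantile normalization once more PSMD5 was at -0.012, PSMA5 at 0.010 and PSMC6 at 0.011, and with centred arrays PSMA5 was at 0.0021, PSMC6 at 0.0043 and PSMB8 at 0.0050. With array weights PSMB11 was at -0.038 and PSMB8 at 0.0042, and with the mean of probe sets PSMC6 was at 0.015 and PSMB8 at 0.064. On arrays 1 and 2 PSME4 was at -0.0058, PSMD5 at -0.030 and PSMA5 at 0.046. On arrays 3 and 4 PSMG2 was at 0.0078, PSMG3 at -0.060, PSMA2 at 0.12, PSMA1 at 0.064, PSMB11 at -0.055, PSMD9 at -0.0055, PSMC6 at 0.097 and PSMB8 at 0.015. With 1 array left out the differences that crossed 0 ranged from -0.0027 to 0.064 in PSMG3, from -0.089 to 0.0090 in PSMA2, from -0.068 to 0.011 in PSMA1, from -0.017 to 0.044 in PSMD5, from -0.028 to 0.16 in PSMB11, from -0.020 to 0.0092 in PSMA5, from -0.0099 to 0.022 in PSMD9, from -0.051 to 0.033 in PSMC6 and from -0.023 to 0.022 in PSMB8. The cause of these reversals was not tested.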
